A study of Mus musculus with 12 samples.

Results

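The replication-dependent histone genes are the family that supplies the bulk of the linker histones H1 and the core histones H2A, H2B, H3 and H4. They were taken here as every gene whose name on the array starts with Hist1h, Hist2h, Hist3h or Hist4h, and where a gene had several spots, the brightest on average across the 12 arrays stood for it. That gave 54 genes on 70 spots, out of 26228 named genes. Of the 54, 42 belong to the Hist1 cluster, 8 to Hist2, 3 to Hist3 and 1 to Hist4, and they comprise 6 H1, 17 H2A, 14 H2B, 8 H3 and 9 H4 genes. All 54 were matched to RefSeq through their Entrez numbers, and 2 of them, Hist1h2al and Hist3h2bb-ps, are annotated there as pseudogenes.

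The study measured liver and lung RNA from female B6C3F1/Nctr mice on 1-colour arrays, with and without acrylamide, in a series on its epigenetic effects. The 4 groups were untreated liver, liver with 0.7 mM acrylamide, untreated lung and lung with 0.7 mM acrylamide, with 3 arrays in each. Strain and sex were shared by all groups, the controls were matched for age, and the age, route and length of exposure were not given in the sources used here. Each array is called here by its tissue, its treatment and the number in its title.

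These genes are unlike most others in how their messages are made. They have no introns, their transcripts are normally cut behind a stem-loop in place of receiving a poly(A) tail, and the stem-loop binding protein Slbp holds that end. Transcription is concentrated in S phase and is driven at the histone locus body by Npat, although a few members can also give polyadenylated transcripts in cells that have stopped dividing. The labelling kit used here is known to start from an oligo(dT) primer, so the values bear mainly on transcripts with a run of A. How much that shaped the levels was not tested.

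All 12 arrays carry a tissue entry that says liver, while titles and source names give lung for 6 of them. Summed hepatocyte markers, as intensity over the array's 75th percentile, ranged from 2766 to 3079 on untreated liver arrays and from 13.6 to 28.5 on untreated lung arrays. Summed alveolar type 2 markers ran the other way, 57.6 to 67.2 against 807 to 884, and Nkx2-1 was above background on none of the 6 liver arrays, so the titles were followed. Liver acrylamide 30 stood apart in its background limit, which is set by the upper end (95th percentile) of its negative controls, at 16.8 against 2.35 to 4.45 elsewhere. It had 39 histone genes above that limit, against 48 to 53 on the other arrays. On the log2 scale used below its limit is -4.13, against -9.01 to -6.99 on the others, and a value under a limit is known only to lie below it. Liver acrylamide 27 and 29 stood apart in single markers of lung cells, but not in the summed alveolar type 2 markers. Those sums were 62.6, 57.2 and 72.6 on liver acrylamide 27, 29 and 30. Sftpc, the surfactant protein C gene, read -7.45, -5.83 and -6.13 on the liver controls but 2.63, -0.65 and -5.60 on liver acrylamide 27, 29 and 30. Sftpa1, another surfactant gene, read -1.16, -3.40 and -3.56 on these 3 arrays, against -4.58 to -3.72 on the liver controls.  Liver and lung lay on different slides, and the effect of the slide cannot be told apart from that of the tissue.

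Levels are given as log2 intensity over the 75th percentile of the array, so 0 is that percentile and 1 unit is a doubling. Of the 54 genes, 38 were above background on all 12 arrays, 11 on 10 or 11 of them, and 5 on fewer than 10. Levels of different genes were not set against each other, because each probe has its own brightness. Histone genes of a class are also close in sequence, so a spot can pick up more than the gene it is named for.

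**Figure D1:**
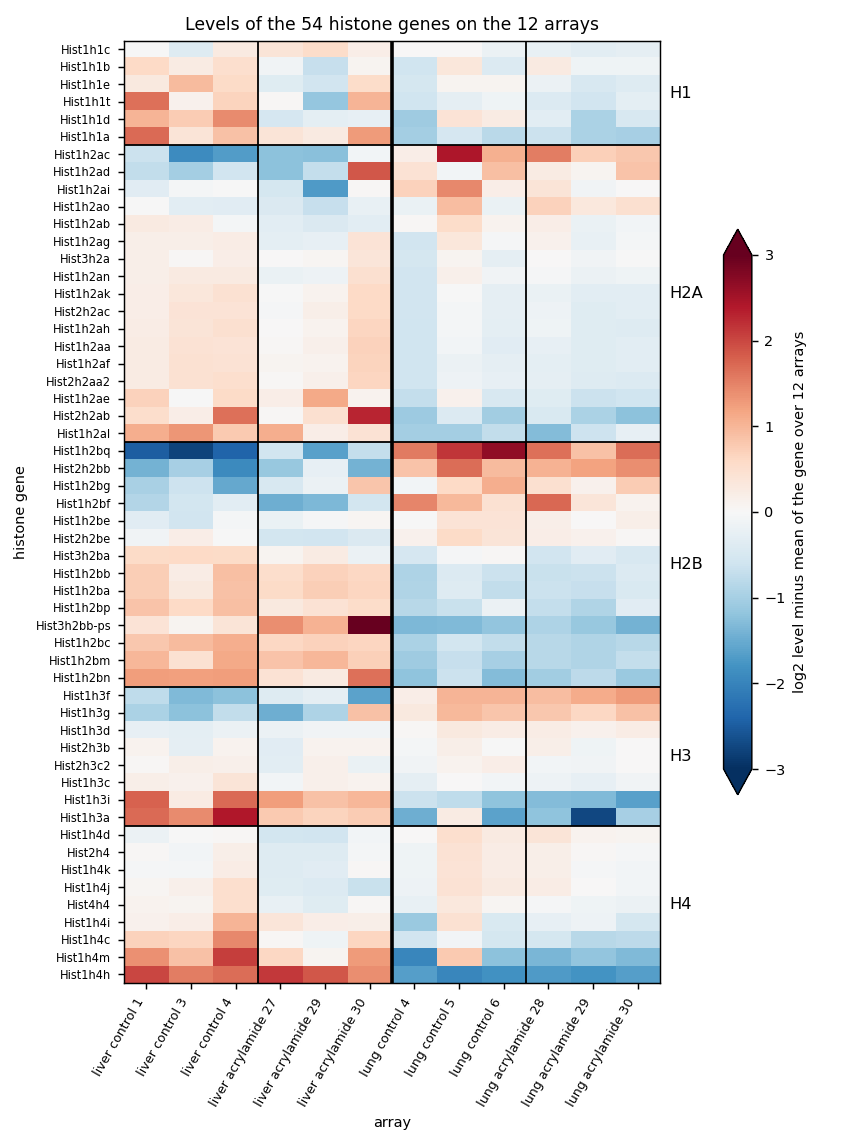
Level of each of the 54 histone genes (rows, by class) on each of the 12 arrays (columns), as log2 level minus the gene's mean over the 12 arrays. Red is above and blue below that mean, the colour scale ends at -3 and 3, and the thick line separates liver from lung. A block of H2A rows is nearly uniform in colour, and the strongest contrasts between tissues are Hist1h2bq and Hist1h4h.

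Some spots repeated each other. Hist1h4d was spotted 11 times, and 10 of those spots differed from one another with an SD of 0.07 over the 12 arrays (median of 45 pairs, 0.03 to 0.16). The 11th was dimmer, with a mean level of 1.16 against 3.09 to 3.23, and its difference between untreated lung and liver was 0.01, against 0.24 to 0.49 for the 10. Among the 703 pairs of the 38 genes above background everywhere, the median SD of the difference was 0.58. In 18 pairs it was under 0.10, and in all 18 both genes were of 1 class. They form 4 groups with 12 genes in all: Hist1h2aa, Hist1h2af, Hist1h2ah, Hist1h2ak, Hist2h2aa2 and Hist2h2ac; Hist1h2ag with Hist1h2an; Hist1h2ba with Hist1h2bb; and Hist1h4k with Hist2h4. Hist1h2aa and Hist1h2ba, known as testis histone genes, thus ran with somatic genes within the spread of repeated spots. Whether these spots bind the same transcripts was not tested, as probe sequences were not used here.

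The question of how the 2 tissues use the family was addressed with the untreated arrays alone. Of 52 histone genes tested, 35 passed an adjusted p of 0.05 in limma, 11 of them higher in lung and 24 lower. That is 67.3% of the members, against 74.4% of all 22426 genes tested, and by direction 32% of all genes were called higher in lung and 42.4% lower. A share called near that of the whole array is not a result about the family. The median difference was -0.51 over the histone genes and -0.27 over all genes tested, and single differences are to be read against the latter. With each parallel group counted once the family median was -0.36, with 11 higher and 18 lower. With the arrays centred on the median the split was 13 higher and 16 lower, with quantile scaling 12 higher and 15 lower, and the median of all genes then moved to -0.07 and 0.02. In bulk tissue, fewer cells of a type and less RNA per cell cannot be told apart.

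Individual members differed far more than the median. At least a 2-fold difference with the same threshold was seen in 15 genes lower in lung and 8 higher, 28.8% and 15.4% of the members against 32.6% and 24.4% of all genes. Of the 35 calls, 21 were kept in each of the 14 other settings in which the gene was tested, and 23 in those that used all arrays. The 11 calls in the higher direction became 5 without lung control 5 and 6 without lung control 6, and 8 or 9 without any other array. Hist1h2bq, Hist1h3g and Hist1h2ad, above background only in lung among the untreated arrays, had too few arrays to be tested without any 1 of the 3 lung controls. These 3 are among the 11 higher calls. They entered the fit through the lung arrays alone, with liver values that were not measured, so their calls add nothing to the bounds given below.

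**Figure D2:**
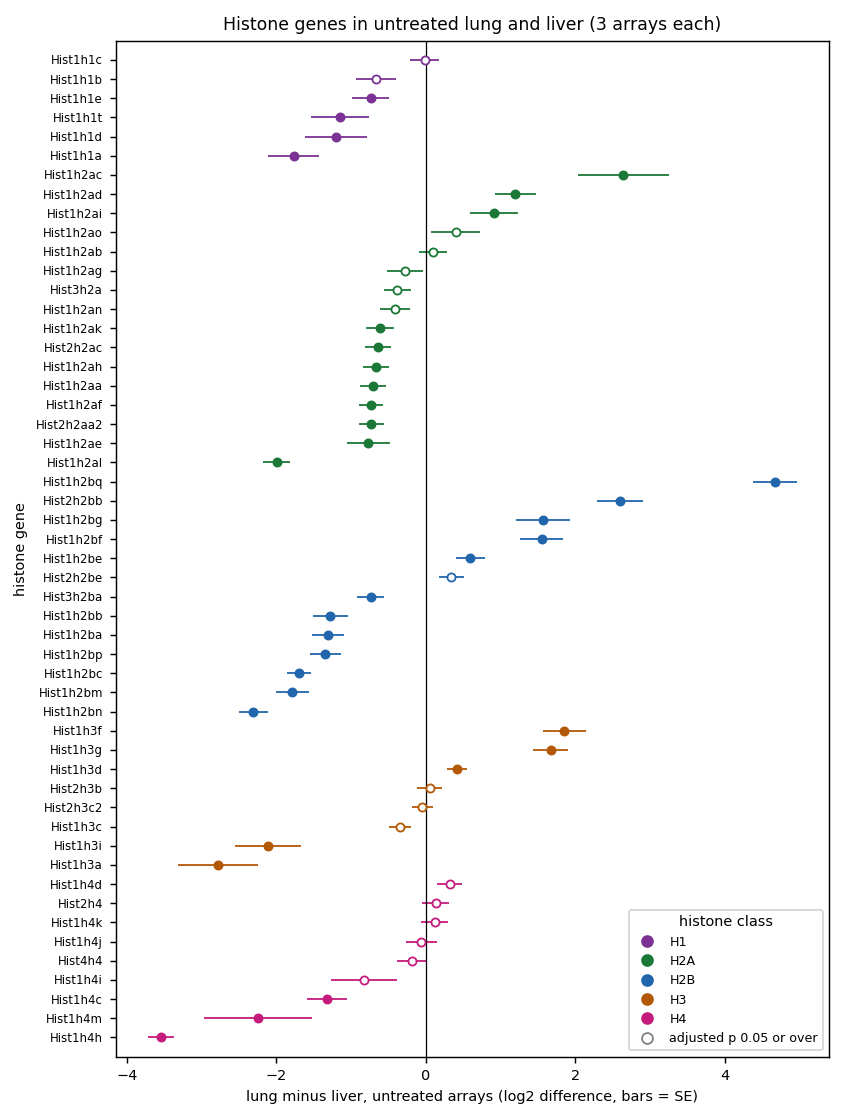
Difference between untreated lung and untreated liver (log2, points, with SE as bars) for the 52 histone genes tested, ordered by class and size, from 3 arrays each. Filled points passed an adjusted p of 0.05. Every class but H1 has members on both sides of 0, from -3.54 for Hist1h4h to 4.67 for Hist1h2bq. Hist1h2bq, Hist1h3g and Hist1h2ad were above background on no liver control.

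Hist1h4h, which encodes the same H4 protein class as 8 other members, was the gene most reduced in lung. It read 1.28, 0.81 and 0.94 on liver controls 1, 3 and 4 and -2.37, -2.68 and -2.54 on lung controls 4, 5 and 6. The treated arrays gave 1.39, 1.14 and 0.67 in liver and -2.42, -2.52 and -2.38 in lung, so all 6 liver arrays lay above all 6 lung arrays. The untreated difference was -3.54 ± 0.17 (SE), 11.6-fold lower in lung, with an adjusted p of 6.59e-06. Within the H4 class this was singular in size: Hist1h4m differed by -2.25 ± 0.72 and Hist1h4c by -1.32 ± 0.27, while the other 6 genes lay between -0.82 and 0.32 and did not pass. The Hist1h4m call was lost without liver control 1 or 4 or lung control 4 or 6, with an adjusted p of up to 0.078.

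Hist1h2bq, an H2B gene, showed the largest difference in the other direction. Its spot was above background on none of the liver controls, at -7.53, -7.85 and -7.45, and read -3.51, -2.91 and -2.40 on the lung controls. All 3 lung controls were above the limits of all 3 liver controls. Since the liver level is only a limit, the fold is a lower bound, at least 19.7-fold higher in lung, beside group means of -7.61 and -2.94. The gene entered the fit through the lung arrays alone, so its p-value is not given as support.

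Promoter windows of the genes that carry these differences are shown here to set the tissue pattern beside the sequence in front of each gene. They come from RefSeq, assembly GRCm38.p6, and run from 250 bases before the start to 50 after it, 5′ to 3′ on the strand of the gene. A window was found for 47 of the 54 genes. Capitals mark 3 motifs known from histone promoters: the TATA box TATAAA on the strand of the gene, the CCAAT box CCAAT on both strands (ATTGG is its reverse), and the octamer ATTTGCAT on both strands, none of which overlaps another in the windows printed. Hist1h4h lies at chr13:23530794-23531093, plus strand, Hist1h2bn at chr13:21753826-21754125, plus strand, Hist1h2bq at chr13:21810150-21810449, minus strand, Hist2h2bb at chr3:96269450-96269749, plus strand, and Hist1h2bg at chr13:23571150-23571449, plus strand. The first pair was lower in lung and the other 3 genes were higher.
Hist1h4h: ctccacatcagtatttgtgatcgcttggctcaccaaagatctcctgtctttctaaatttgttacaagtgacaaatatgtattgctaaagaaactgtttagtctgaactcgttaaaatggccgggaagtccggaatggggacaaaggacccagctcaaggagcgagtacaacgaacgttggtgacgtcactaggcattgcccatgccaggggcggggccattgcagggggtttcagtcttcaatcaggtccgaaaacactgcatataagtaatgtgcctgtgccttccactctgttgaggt
Hist1h2bn: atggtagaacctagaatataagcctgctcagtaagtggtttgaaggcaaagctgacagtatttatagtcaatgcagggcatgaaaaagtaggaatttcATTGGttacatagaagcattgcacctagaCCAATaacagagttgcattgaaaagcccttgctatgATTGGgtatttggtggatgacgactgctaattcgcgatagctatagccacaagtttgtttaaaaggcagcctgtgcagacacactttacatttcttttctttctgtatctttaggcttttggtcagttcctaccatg
Hist1h2bq: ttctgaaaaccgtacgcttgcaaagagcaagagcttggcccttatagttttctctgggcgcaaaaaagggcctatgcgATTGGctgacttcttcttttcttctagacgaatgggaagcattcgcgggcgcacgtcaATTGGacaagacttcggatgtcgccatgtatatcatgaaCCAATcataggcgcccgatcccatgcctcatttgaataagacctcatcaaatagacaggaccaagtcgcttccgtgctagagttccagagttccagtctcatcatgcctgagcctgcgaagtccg
Hist2h2bb: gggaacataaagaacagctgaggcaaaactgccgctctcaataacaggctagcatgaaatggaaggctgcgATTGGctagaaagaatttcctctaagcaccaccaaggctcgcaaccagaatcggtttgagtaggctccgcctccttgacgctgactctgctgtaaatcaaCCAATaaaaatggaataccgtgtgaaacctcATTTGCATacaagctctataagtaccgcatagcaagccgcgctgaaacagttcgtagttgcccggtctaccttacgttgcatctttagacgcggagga
Hist1h2bg: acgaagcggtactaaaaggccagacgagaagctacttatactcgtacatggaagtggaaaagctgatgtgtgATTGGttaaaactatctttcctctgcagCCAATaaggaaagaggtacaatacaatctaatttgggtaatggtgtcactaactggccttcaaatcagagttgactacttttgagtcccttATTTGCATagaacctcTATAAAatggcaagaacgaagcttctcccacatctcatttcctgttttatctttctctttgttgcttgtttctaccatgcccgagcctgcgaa
The Hist1h4h window holds none of the 3 motifs, which among the 47 genes is shared only with Hist4h4, an H4 gene that did not differ between tissues by the test (-0.18 ± 0.20). Among the 47 genes, 41 hold a CCAAT box (87.2%, against 37.4% of all 32851 windows in the table), 24 a TATA box (51.1% against 8.32%) and 13 the octamer (27.7% against 1.74%). The octamer was found in 7 of 16 H2A and 6 of 11 H2B windows and in no window of the other classes, and CCAAT was in every H1, H2A, H2B and H3 window but in only 2 of 8 H4 windows. Of the H2B genes printed, Hist1h2bq and Hist1h2bn each hold 3 CCAAT boxes and no TATAAA or octamer, and they differed between the tissues in opposite directions. A match is a match of letters, and nothing about a factor follows from it.

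Among H2B genes, the largest loss in lung was Hist1h2bn, with 5.56, 5.53 and 5.56 on the liver controls and 3.09, 3.64 and 2.99 on the lung controls. The groups were far apart, and the difference was -2.30 ± 0.20 with an adjusted p of 7.05e-05. Hist1h2bm (-1.79 ± 0.22), Hist1h2bc (-1.69 ± 0.16), Hist1h2bp (-1.34 ± 0.21), the parallel pair Hist1h2ba and Hist1h2bb (-1.31 and -1.28) and Hist3h2ba (-0.74 ± 0.18) were also lower in lung. Hist2h2bb went the other way. It read -2.94, -2.52 and -3.42 in liver and -0.66, 0.15 and -0.57 in lung, with no overlap, a difference of 2.60 ± 0.31 and an adjusted p of 0.000342. Its second spot, named by another accession, was higher in lung by only 0.73. Hist1h2bg (1.57 ± 0.36) and Hist1h2bf (1.55 ± 0.29) were higher in lung as well. Of the 13 H2B genes tested, 7 were called lower and 5 higher, where all genes on the array had 42.4% and 32%, with Hist1h2be (0.60 ± 0.20) the smallest of the latter. The Hist1h2be call was lost without liver control 1 or 3 or lung control 5 or 6, at up to an adjusted p of 0.0949.

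H3 genes were split in the same manner. Hist1h3f read -1.74, -2.30 and -2.21 on the liver controls and -0.78, 0.05 and 0.05 on the lung controls, a difference of 1.85 ± 0.28 with no overlap. Hist1h3g was above background on all 3 lung controls and on no liver control, at least 2.98-fold higher in lung. Hist1h3d was higher by 0.42 ± 0.13, a call that was lost without any 1 of 5 of the 6 arrays, lung control 4 being the exception (adjusted p up to 0.0891). Hist1h3a and Hist1h3i were lower in lung, by -2.77 ± 0.53 and -2.11 ± 0.44, and Hist1h3c, Hist2h3b and Hist2h3c2 lay between -0.34 and 0.05 and did not pass.

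The largest H2A difference was that of Hist1h2ac, at -6.04, -7.27 and -7.08 in liver, above background on 2 of the 3 controls, and -5.18, -2.95 and -4.32 in lung. Lung arrays were spread over more than 2 log2 units, and the difference was 2.65 ± 0.61 with an adjusted p of 0.00718. Hist1h2ad was at least 2.08-fold higher in lung, as it was above background on no liver control. Hist1h2ai differed by 0.92 ± 0.32, but its call was lost without any 1 of 5 arrays (adjusted p up to 0.104, lung control 6 being the exception). Its second spot, above background on only 2 of all 12 arrays, gave 0.24. Hist1h2al, one of the pseudogenes, was lower by -1.99 ± 0.18. The 6 parallel H2A spots were called lower by -0.61 to -0.73, but with quantile scaling all 6 calls were lost and Hist1h2ah, Hist1h2ak and Hist2h2ac turned to 0.02, 0.08 and 0.06. Hist1h2ae was called at -0.77 ± 0.29 with an adjusted p of 0.047. Its groups overlapped, and the call was lost without liver control 1 or 4 or lung control 4 or 6 (up to 0.131). The Hist1h2ak call was lost as well without liver control 3 or 4 or lung control 4 or 6 (up to 0.0693).

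Linker histone genes, whose products bind the DNA between nucleosomes, all had differences below 0. Hist1h1a, with -2.23, -3.52 and -3.04 in liver and -4.93, -4.42 and -4.73 in lung, was lower by -1.76 ± 0.34 (adjusted p 0.00336) and kept its call without any 1 array. Hist1h1d (-1.20 ± 0.42), the testis gene Hist1h1t (-1.14 ± 0.39) and Hist1h1e (-0.74 ± 0.25) passed too. Each of these 3 calls was lost with the arrays centred on the median and without some single arrays. Those were the 3 liver controls for Hist1h1d (up to 0.101), liver control 4 and all 3 lung controls for Hist1h1t (up to 0.0969), and liver controls 3 and 4 and lung control 4 for Hist1h1e (up to 0.0909). Hist1h1b differed by -0.67 ± 0.27 and did not pass at 0.0607, but passed without lung control 5 at 0.00571. Hist1h1c, a somatic linker gene, read -1.42, -1.79 and -1.15 in liver and -1.41, -1.40 and -1.59 in lung. Its difference was -0.01 ± 0.19, and centring on the median turned it to 0.19.

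Neighbours in the cluster did not always share a direction. The files name no genome build, so neighbours and the distances between starts were taken from RefSeq. Pairs were searched only among the 47 genes with a promoter window. In 6 places there, an H2A and an H2B gene point away from each other with starts 164 to 281 bases apart. In 4 of these pairs both genes were called between the tissues, 3 in the same direction and 1 in opposite ones. As 74.4% of all genes tested were called, these counts are not a result about the pairs. With quantile scaling the calls of Hist1h2ak, Hist1h2aa and Hist1h2ae, which are H2A members of such pairs, were lost. The opposite pair was Hist1h2ae (-0.77), whose call was also lost without any 1 of 4 of the 6 arrays, with Hist1h2bg (1.57). Their shared stretch is the Hist1h2bg window printed above, with an octamer, a TATA box and 2 CCAAT boxes. Beside the fitted 4.67 of Hist1h2bq, whose liver level is only a limit, its partner Hist1h2ao differed by 0.40 ± 0.33 and did not pass. Hist1h2ac and Hist1h2bc, next to each other in the RefSeq order, differed by 2.65 and -1.69. Hist1h2bc has no window, so these neighbours were outside the search and its counts. In contrast, the 6 consecutive members from Hist1h2bg through Hist1h2bf, Hist1h2ad, Hist1h3d and Hist1h4d to Hist1h2be all had differences above 0, and all but Hist1h4d (0.32 ± 0.17) were called. That stretch was picked out after its values were seen.

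Genes around the histone message and the cell cycle were described from lists, whose counts are to be read against the 32% of all genes called higher in lung and the 42.4% called lower. Of 22 genes for histone mRNA transcription and processing, 7 were higher in lung and 4 lower, with a median of 0.16. Zfp473, a zinc finger protein of the processing complex, was higher by 2.10, E2f1, an S-phase transcription factor, by 1.54, Npat by 0.95, Casp8ap2, a partner of Npat in the histone locus body, by 0.78 and Slbp by 0.60, while Lsm10, part of the U7 particle, was at -0.98. Slbp read -0.75, -1.56 and -1.09 in liver and -0.63, -0.48 and -0.48 in lung. All 20 mitosis and proliferation genes had higher means in lung and 18 were called, with a median of 1.76; Mki67 differed by 1.97 ± 0.21 and Bub1 by 3.70 ± 0.21. Of 27 DNA replication genes, 10 were higher and 9 lower, among them Pcna, the sliding clamp, at 0.88 ± 0.16 and Mcm10 at -5.21 ± 0.18. Chaperones of histones were higher in 11 of 20 and lower in 5, led by Chaf1a at 1.82 ± 0.29. Of 15 replication-independent variants, 3 were higher and 6 lower, including H3f3b, which encodes H3.3, at 1.04 ± 0.13. Immune cell markers differed too. Of 7 B and plasma cell genes 4 were higher in lung and 1 lower, and of 6 T and NK cell genes 5 were higher and 1 lower. Erythroid markers had 3 genes higher and 1 lower, neutrophil and bone marrow markers 2 and 2, macrophage markers 2 and 2, and germ cell markers 1 and 4. What part the cell makeup has in the histone differences was not tested.

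In liver, no histone gene passed the adjusted threshold after acrylamide, and most had lower means. Of 50 histone genes tested in limma, 0 were called, as were 0 of all 21076 genes (0%), of which 1289 had an unadjusted p under 0.05. Fitted with all 12 arrays, 2 genes of the array were called and 0 histone genes. A difference below 0 was seen in 38 members (76%) against 53.2% of all genes, and the median difference was -0.22 against -0.02. With each parallel group counted once the median was -0.27, with 31 genes below 0. Unadjusted p was under 0.05 for 8 members in the lower direction (16%, against 3.54% of all genes) and for 1 in the higher (2% against 2.57%). Of these 9, Hist1h1d, Hist1h3a, Hist3h2ba and Hist1h2bg were under the limit of acrylamide 30, so their fitted values rest in part on a level that was not measured. The others, all in the lower direction, were Hist1h4c, Hist1h4j, Hist1h1b, Hist2h2be and Hist1h2ab, which were above that limit. Where a value under a limit is taken as lying anywhere below it, the treated and control arrays did not overlap for 8 members lower and 2 higher (16% and 4%, against 5.54% and 4.38% of all genes). With a fold of at least 1.5 added, 3 were lower and 1 higher, 6% and 2% against 1.27% and 0.864%. The higher gene, Hist3h2bb-ps, was near the limit on acrylamide 30. It was above background on no control and entered the fit through the treated arrays alone. Its part in the higher shares, with and without the fold, is therefore not a result.

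**Figure D3:**
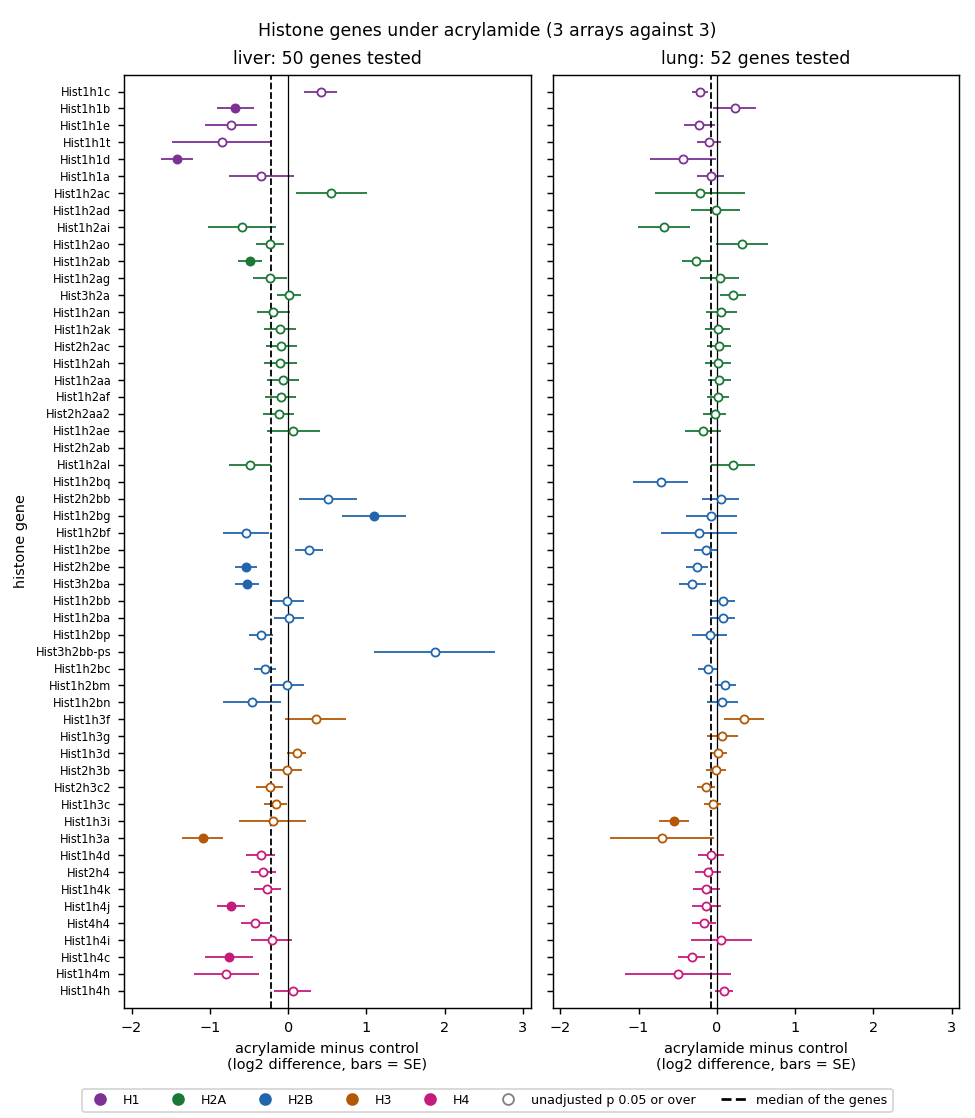
Acrylamide minus control (log2, points, with SE as bars) for the histone genes tested in liver (50, left) and lung (52, right), from 3 arrays against 3. Filled points had an unadjusted p under 0.05, none passed the adjusted threshold, and the dashed lines mark the medians of -0.22 and -0.07. Hist1h1d lies farthest to the left in liver and Hist3h2bb-ps, above background on no liver control, farthest to the right. Of the 50 liver genes, 11, Hist1h1d among them, were under the limit of liver acrylamide 30.

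The lower liver means did not come equally from the 3 treated arrays. Over the 38 genes above background on every liver array, the median level relative to the control mean was -0.06, -0.09 and 0.09 on controls 1, 3 and 4. It was -0.35 on acrylamide 27 and -0.26 on acrylamide 29 but 0.00 on acrylamide 30, the array with the raised background limit. Of the 38 genes, 32, 27 and 19 lay below the control mean on these 3 arrays. By class, H4 was low on all 3, at -0.46, -0.53 and -0.21 against -0.12, -0.16 and 0.27 on the controls. H1 stood at -0.57, -0.93 and 0.09, and H2A at -0.35, -0.25 and 0.25. H2B and H3 stayed between -0.29 and 0.13 on the treated arrays. Acrylamide 27 and 29 are also the arrays with raised signal for single lung markers, Sftpc as given above and the club cell gene Scgb1a1. The latter read 2.35 and 1.29 there, against -3.74 to -2.80 on the controls and -3.92 on acrylamide 30; summed hepatocyte markers there were 2351 and 2195, below the 2766 to 3079 of the controls, and 3535 on acrylamide 30. What part these have in the histone values was not tested.

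Leaving out acrylamide 30 brought the median to -0.30 and the members at an unadjusted p under 0.05 in the lower direction to 20, with 38 genes below 0 and none called. Without acrylamide 27 the values were -0.19, 8 and 32, and without acrylamide 29 they were -0.16, 5 and 39. Without control 1 the members at that p numbered 5, and weighting the arrays by their quality gave 22. The share of all genes at that p was not computed for these fits, so these counts are not a result about the family. The titles also give 2 slide rows, and the median was -0.12 in row 1, with 2 arrays against 2, and -0.36 in row 2, with 1 against 1.

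**Figure D4:**
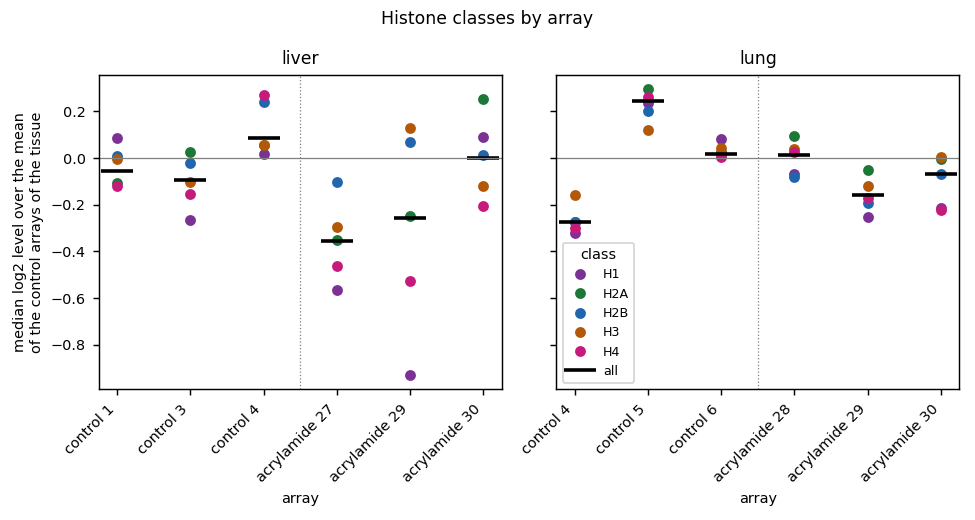
Median log2 level of each histone class on each array, relative to the mean of the 3 control arrays of the same tissue, over genes above background on all 6 arrays of that tissue (38 in liver, 51 in lung). Coloured points are classes and black bars the whole family. In liver the family lies at -0.35, -0.26 and 0.00 on the treated arrays, and in lung all treated arrays lie between controls 4 and 5.

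Hist1h1d had the lowest fitted value of any member in liver. It read -4.24, -4.49 and -3.83 on controls 1, 3 and 4 and -5.77 and -5.54 on acrylamide 27 and 29. On acrylamide 30 it was under the limit of -4.13, which lies above controls 1 and 3, so whether that array was below the controls is not known. Both treated arrays that measured it were below all controls, and without acrylamide 30 the difference was -1.46 ± 0.23 with an adjusted p of 0.131. Its other spot, above background on 4 arrays, gave 0.47 over all arrays, and with both spots averaged the difference was -0.47. The start of this linker gene lies in the RefSeq window chr13:23554782-23555081, plus strand, printed because its fitted value is the lowest in liver, with a CCAAT box and a TATA box in capitals.
Hist1h1d: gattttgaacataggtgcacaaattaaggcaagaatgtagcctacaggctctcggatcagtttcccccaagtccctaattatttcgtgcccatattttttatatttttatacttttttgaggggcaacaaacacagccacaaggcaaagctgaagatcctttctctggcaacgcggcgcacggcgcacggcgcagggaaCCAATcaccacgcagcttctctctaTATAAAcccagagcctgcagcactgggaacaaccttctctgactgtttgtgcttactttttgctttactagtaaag
The other linker genes in liver were uneven. Hist1h1b read -2.52, -2.85 and -2.60 on the controls and -3.20, -3.79 and -3.01 on the treated arrays, without overlap, for a difference of -0.68 ± 0.24 (adjusted p 0.782). Hist1h1e differed by -0.73 ± 0.34, with 0.67 and 0.46 on acrylamide 27 and 29 but 1.58 on acrylamide 30 against 1.32 to 1.97 on the controls, so the groups overlapped. Hist1h1a (-0.35 ± 0.41) overlapped too, and without control 1 it was at 0.01. Hist1h1t was under the limit on acrylamide 30, with -3.79, -5.31 and -4.78 on the controls, -5.41 and -6.61 on acrylamide 27 and 29, and a difference of -1.38 ± 0.57 without that array (adjusted p 0.333). Hist1h1c was the only linker gene above 0, at 0.42 ± 0.21, with -1.03, -0.86 and -1.21 on the treated arrays and -1.42, -1.79 and -1.15 on the controls.

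Among core histone genes, the lowest liver values were those of Hist1h3a and of the H4 genes Hist1h4m, Hist1h4c and Hist1h4j. Hist1h3a read -4.47, -4.75 and -3.78 on the controls and -5.38 and -5.50 on acrylamide 27 and 29, both below all controls, and was under the limit on acrylamide 30. Without that array the difference was -1.10 ± 0.31 (adjusted p 0.229). Hist1h4j, at -2.07, -1.98 and -1.62 against -2.50, -2.54 and -2.81, differed by -0.73 ± 0.18 with no overlap. Hist1h4c (-0.76 ± 0.31) did not overlap either, with its highest treated value of -1.97 just under the lowest control of -1.94. Hist1h4m differed by -0.79 ± 0.41 and overlapped. Smaller differences without overlap were those of Hist2h2be (-0.54 ± 0.14), Hist3h2ba (-0.52 ± 0.15), Hist1h2ab (-0.49 ± 0.15), Hist4h4 (-0.42 ± 0.19) and Hist1h2bc (-0.29 ± 0.14), each with an adjusted p of 0.782. The second Hist2h2be spot, above background on all 12 arrays, gave -0.27 with overlapping groups. For Hist3h2ba, acrylamide 30 was under its limit, which itself lies below the 3 controls (-3.50 to -3.48). Hist1h4h, which separated the tissues most in the lower direction, differed by 0.06 ± 0.24.

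Few members were higher on treated liver arrays, and Hist1h3d, without overlap, differed by only 0.11 ± 0.12. Hist1h2bg read -6.48, -6.12 and -7.05 on the controls, 2 of them above background, and -6.002 and -5.69 on acrylamide 27 and 29, and was under the limit on acrylamide 30. Without that array the difference was 0.71 ± 0.31 (adjusted p 0.343). Hist3h2bb-ps, a pseudogene, was above background on no control and on all treated arrays. It read -3.77 on acrylamide 30, near the raised limit of -4.13 there, but -6.42 and -6.76 on acrylamide 27 and 29. The treated mean was at least 3.00-fold above the mean limit of the controls. That bound rests in part on acrylamide 30 and does not hold for each treated array. Hist2h2bb (0.51 ± 0.37) and Hist1h3f (0.36 ± 0.39) overlapped, and the second Hist2h2bb spot gave -0.89. Hist1h2ac, again under the limit on acrylamide 30, differed by 0.17 ± 0.40 without that array. Hist1h2bq was not tested in liver, being above background on 2 liver arrays only. Those were acrylamide 27 and 29, at -5.63 and -6.70, while the limits of the controls ran from -7.48 to -6.99. On acrylamide 30 the limit of -4.13 lies above both values, so that array could not have shown such a level. Acrylamide 27 and 29 are also the arrays with Sftpc and Scgb1a1, and what part that has in these values was not tested.

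Other genes of the pathway did not pass in liver either. Of 22 transcription and processing genes 11 were higher and 11 lower with 0 called, and Slbp, Npat and Casp8ap2 differed by 0.41 ± 0.35, -0.14 ± 0.23 and 0.00 ± 0.13. Mitosis and proliferation genes were above 0 in 17 of 20, with a median of 0.26 and 0 called, where the histone median was -0.22. Of the 20, 7 were not above background on acrylamide 30. Their summed levels were 4.45 to 4.69 on the treated arrays, within the 2.79 to 5.01 of the controls. Cdk1 differed by 1.59 ± 0.58 and Mki67 by 0.05 ± 0.17. DNA replication genes were above 0 in 13 of 27, and Mcm10 differed by 0.90 ± 0.15 (adjusted p 0.642) and Pcna by 0.28 ± 0.18. Replication-independent variants were below 0 in 8 of 14 and chaperones in 10 of 20, with 0 called in each. B and plasma cell genes were below 0 in 7 of 7, with summed levels of 2.51 to 2.99 against 2.79 to 3.75 on the controls, and macrophage genes above 0 in 6 of 6, at 14.9 to 19.1 against 9.29 to 14.1. Neutrophil and bone marrow genes summed to 3.40 to 6.21 against 3.95 to 8.37. Of the 5 tested, 2 were above 0 and 3 below, with a median of -0.13 and a highest value of 0.25. S100a9 was at -1.81 ± 0.49 and S100a8 at -1.79 ± 0.64 (adjusted p 0.782 for both). The latter was not above background on acrylamide 30, so its value rests in part on a level that was not measured. Their part in the histone values was not tested.

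Lung gave smaller differences. Of 52 histone genes, limma called 0, as it did of all 22226 genes (0%), of which 1101 had an unadjusted p under 0.05. A difference below 0 was found in 31 members (59.6%, against 51.6% of all genes), and the median was -0.07 against -0.01. Unadjusted p was under 0.05 in 1 member in the lower direction (1.92%, against 3.1% of all genes) and 0 in the higher (0% against 1.85%). Groups did not overlap for 2 members lower and 0 higher, 3.85% and 0% against 6.8% and 4.11%. By these last counts the shares in lung were below those of the whole array.

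The member with that p was Hist1h3i, at -6.26, -6.38 and -6.84 on lung controls 4, 5 and 6 and -6.92, -6.95 and -7.26 on acrylamide 28, 29 and 30. Every treated array was below every control by a small margin, and the difference was -0.55 ± 0.19 (unadjusted p 0.0264, adjusted p 0.977). In liver the same gene differed by -0.20 ± 0.43. The other without overlap was Hist1h1c, at -1.41, -1.40 and -1.59 against -1.64, -1.72 and -1.68, a difference of -0.22 ± 0.10 (adjusted p 0.999). The largest negative values were those of Hist1h2bq (-0.72 ± 0.35), Hist1h3a (-0.70 ± 0.66), Hist1h2ai (-0.68 ± 0.33), Hist1h4m (-0.50 ± 0.68) and Hist1h1d (-0.44 ± 0.42), all with overlapping groups. For Hist1h4m this was 1 control: lung control 5 read -2.70, the other 5 lung arrays -5.45 to -4.68, and without it the difference was 0.29. The largest positive values were Hist1h3f (0.35 ± 0.25), Hist1h2ao (0.32 ± 0.33), Hist1h1b (0.23 ± 0.28), Hist1h2al (0.21 ± 0.28), Hist3h2a (0.21 ± 0.17) and Hist1h2bm (0.11 ± 0.14). Of the linker genes not yet named, Hist1h1e differed by -0.22 ± 0.20, Hist1h1t by -0.10 ± 0.15 and Hist1h1a by -0.08 ± 0.17.

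In lung the controls differed among themselves over the whole family, and by more than the groups did. Over the 51 genes above background on every lung array, the median relative to the control mean was -0.27 on control 4, 0.25 on control 5 and 0.02 on control 6, and 0.01, -0.16 and -0.07 on acrylamide 28, 29 and 30. Control 4 was below the control mean for 46 of the 51 genes and control 5 for 4 of them, and every class showed the same order of these controls. Without control 4 the median difference was -0.20, with 44 genes below 0, and without control 5 it was 0.05, with 22 below 0. Controls 4, 5 and 6 also differed in other lists. Summed mitosis and proliferation genes read 8.34, 13.8 and 10.99, B and plasma cell genes 3.97, 8.36 and 11.03, T and NK cell genes 5.33, 8.27 and 9.04, neutrophil and bone marrow genes 8.67, 22.4 and 36.6, and macrophage genes 24.5, 40.7 and 34.2. Control 4 was thus the lowest in all of these, while the highest was control 5 for the histone, proliferation and macrophage genes and control 6 for the other 3 lists. Their part in the histone values was not tested. By slide row the median was -0.27 in row 1, with 2 treated arrays and control 5, and -0.04 in row 2, with 1 treated array and controls 4 and 6.

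Among other lists in lung, mitosis and proliferation genes were above 0 in 19 of 20, with a median of 0.23 and 0 called. Slbp, Npat, Casp8ap2, Mki67 and Pcna differed by 0.08, -0.06, 0.26, 0.08 and 0.10. Transcription and processing genes were above 0 in 12 of 23, DNA replication genes in 14 of 27, chaperones in 9 of 20 and replication-independent variants in 7 of 15, with 0 called in each. Hepatocyte markers were above 0 in 7 of 7, macrophage markers in 5 of 6 and alveolar type 2 markers in 0 of 7, also with 0 called. Summed hepatocyte markers were 14.4, 13.6 and 28.5 on lung controls 4, 5 and 6 and 29.3, 28.4 and 13.8 on acrylamide 28, 29 and 30, so that 3 arrays were about as high as each other and the other 3 lower, across both groups. Their part in the histone values was not tested.

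Whether acrylamide acted differently on the family in the 2 tissues was tested as an interaction over all 12 arrays. Of 53 histone genes, 0 passed, and of all 23283 genes 0 (0%) did, with 1034 at an unadjusted p under 0.05. The lung minus liver difference of the effects was above 0 for 39 members (73.6%, against 49.9% of all genes) and below 0 for 14 (26.4% against 50.1%), with a median of 0.12 against 0.00. All 9 H4 genes were above 0, between 0.03 and 0.59. Unadjusted p was under 0.05 for 2 members in each direction, 3.77% against 2.18% of all genes above 0 and 2.26% below. The 14 below 0 became 26 without lung control 4. Weighting the arrays by quality called 139 genes of the array, and leaving out liver acrylamide 30 called 136, but 0 histone genes in either.

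Hist1h2bq had the most negative value, -2.30 ± 0.50 (adjusted p 0.789), with -7.61 and -6.03 as the untreated and treated means in liver and -2.94 and -3.66 in lung. It combines a lung difference with overlapping groups and a liver level below background on 4 of 6 arrays, so its size was not measured. Next came Hist3h2bb-ps (-1.74 ± 0.87), Hist1h2bg (-1.17 ± 0.57), Hist1h2ad (-0.78 ± 0.94), Hist1h2ac (-0.77 ± 0.80) and Hist1h1c (-0.64 ± 0.23). Hist3h2bb-ps was above background on no lung array and on no liver control, so no lung effect was measured for it. Hist1h2ad was not above background on any liver array, and without liver acrylamide 30 its value was 0.17. On the positive side were Hist1h1d (0.98 ± 0.50), Hist1h1b (0.90 ± 0.39), Hist1h1t (0.75 ± 0.72), Hist1h2al (0.70 ± 0.42), Hist1h4j (0.59 ± 0.26) and Hist1h2ao (0.55 ± 0.40), each with an adjusted p of 0.994. Several of these were under the limit on liver acrylamide 30, and without that array Hist1h2bq was at -2.17, Hist1h2bg at -0.78, Hist1h2ac at -0.38, Hist1h1d at 1.03, Hist1h1t at 1.28 and Hist1h2al at 0.63. Hist1h1e gave 0.51 ± 0.42 and Hist1h1a 0.27 ± 0.49, and without liver control 1 the latter was at -0.08. Together with Hist1h1c at 0.42 in liver and -0.22 in lung, 5 of the 6 linker genes lay above 0 and 1 below.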

How the data were processed

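Per the deposited array files, every array carries 1 linear Cy3 intensity for each of 62976 spots. The authors extracted it with Agilent Feature Extraction 10.7 (as the submitters' processing notes give it), and whether background was subtracted is not stated. The deposited series matrix holds the same intensity times 1 factor per array. After removal of 1319 control spots, log2 intensity was taken relative to the 75th percentile of the 61657 others. Above background means over the 95th percentile of the 308 negative controls of that array. RefSeq (GRCm38.p6) gave names, neighbours and promoter windows. A gene entered a fit when at least 3 of its arrays were above background. Fits used limma 3.58.1 (lmFit, eBayes; R 4.3.3), tested on simulated data, and a Benjamini-Hochberg adjusted p under 0.05 over all genes was called. Within a tissue the fit used its 6 arrays, between tissues the 6 untreated ones, and the interaction all 12. Where 1 group never reached background, the fold is a bound against the mean background limit of its arrays. No source says that arrays came from separate animals, so p-values measure the spread between arrays, which may be technical, and their number limits the precision. The members and the gene lists were chosen with earlier results of these data known. Named in each comparison were the 6 members with the largest differences in each direction, non-overlapping members of at least 1.5-fold, all linker genes, called members and a few genes of each other list. Alternatives in scaling, filter, spots, weights, blocks and left-out arrays were run.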

Additional observations from a re-analysis of the deposited data

How the results depend on the processing

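In liver, lung and the interaction, no histone gene was called under any setting run. Leaving out 1 array at a time, the liver counts below 0 ran from 32 to 42 and the median from -0.30 to -0.16. Members at an unadjusted p under 0.05 and lower ran from 5 to 20, and weighting the arrays gave 22. All-gene shares at that p were not computed for these fits. The lung median ran from -0.20 to 0.05 and its count below 0 from 22 to 44. In the untreated comparison the calls ran from 26 to 32, higher ones from 5 to 9, lower ones from 18 to 27, and the median from -0.75 to -0.46. The interaction count below 0 ran from 11 to 26 and its median from 0.02 to 0.29. With quantile scaling 15 members were called lower in lung, the median was -0.033, and Hist1h2ah, Hist1h2ak and Hist2h2ac reversed to 0.0155, 0.084 and 0.061. Requiring signal above background on every array, which tests fewer genes, left 6 called higher in lung and 5 below 0 in the interaction. Hist1h1c between tissues reversed to 0.19 with median centring, and Hist2h2bb in liver to -0.19 with its spots averaged. Array weights reversed Hist1h1b in lung to -0.029 and Hist1h2ad in the interaction to 0.14. Leaving out 1 array reversed some single genes, whose values then ranged as follows: in liver Hist1h1a from -0.66 to 0.0052 (without control 1); in lung Hist1h1a to 0.062 and Hist1h4m from -1.08 to 0.29 (both without control 5), Hist1h1t from -0.23 to 0.0016 (without control 6) and Hist1h2al from -0.029 (without acrylamide 30) to 0.50; in the interaction Hist1h1a from -0.081 (without liver control 1) to 0.58 and Hist1h2ad from -1.38 to 0.17 (without liver acrylamide 30); and between tissues Hist1h1c to 0.0026, 0.14 and 0.049 (without liver control 1 or 4 or lung control 6). The causes were not tested. For title numbers shared by the tissues, correlations of deviations were 0.01, -0.02 and -0.16 for numbers 4, 29 and 30. With 1 pair of arrays per number, these cannot show whether the arrays came from the same mouse. With the number as a replicate block (correlation -0.18), the interaction had 0 calls, a median of 0.12 and 14 below 0. The untreated groups share only number 4, so that block could not be fitted there. Counting parallel spots once was chosen after seeing the data. Dim spots limit liver most: acrylamide 30 measured 39 members above background.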
